A study of Rattus norvegicus with 22 samples.

Results

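The motile cilia genes of the central canal are genes for the parts of the beating cilium, chosen here by name alone: the families Dnah, Dnai, Cfap, Rsph and Tekt, with Ccdc39 and Ccdc40. Of the 32883 genes in the deposited count table, 52 carry such a symbol, and 49 of the 52 passed the filter on low counts over all 22 rats. Foxj1 was not analysed here. The set holds 26 Cfap, 10 Dnah, 2 Dnai, 7 Rsph and 5 Tekt genes beside the 2 Ccdc genes.

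RNA was sequenced from the ventral cervical spinal cord, levels C3 to C6, of Sprague-Dawley rats aged 3 to 4 months, with 1 library from each of 22 rats. There were 5 intact males, 5 gonadectomised males (GDX), 6 intact females and 6 ovariectomised females (OVX), and tissue was taken 2 weeks after surgery in the GDX and OVX rats. The study compared the groups to ask how sex and the loss of the gonads bear on gene expression in the tissue that holds the phrenic motor neurons, and no sham surgery is mentioned for the intact rats. Its library table gives an average input fragment size for each library. The sizes fall in 2 narrow ranges, which are named here the long-fragment and short-fragment classes. The long-fragment class holds 3 of the 5 intact males and 4 of the 6 intact females. Every GDX and OVX rat is in the short-fragment class, so gonadectomy and fragment class overlap in the design.

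The central canal of the spinal cord is lined by ependymal cells, which carry motile cilia that stir the cerebrospinal fluid. Such a cilium is built on a ring of microtubule doublets around a central pair; outer and inner dynein arms slide the doublets, radial spokes link them to the central pair, and a ruler of Ccdc39 and Ccdc40 sets the spacing of the arms and spokes. Many genes of the same parts are also used by the sperm tail, and some by primary cilia or outside cilia, so a symbol of these families does not by itself name a cell type.

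The libraries held between 12371756 and 17571887 counts, with a median of 14722472. Levels are given as CPM, the count of a gene scaled to a fixed total for each library, and fold changes are on the log2 scale. Transcript lengths were not used, so the order of genes by CPM depends on their lengths too. Where a gene is called the most abundant of a list, it has the highest CPM, and no difference in level between genes is read from it.

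The ependymal label was checked against genes outside the set. Of 15 genes listed as non-axonemal genes of ependymal cells, all were counted. The most abundant was Vim, a filament protein that astrocytes and fibroblasts also make, at a mean of 111 CPM. The more restricted ependymal genes were counted as well: Ccdc153 had a mean of 2.46 CPM, Mlf1 2.11 CPM and Tmem212 1.16 CPM. Ccdc153 is itself an axonemal protein, so its count is not a check from outside the axoneme. Among 14 regulators of cilium building, Rfx4 was the most abundant at 16.8 CPM. Of the genes used while multiciliated cells form, Mcidas had no count in any rat, and Ccno had a mean of 0.00807 CPM. Gmnc had a mean of 0.123 CPM, Deup1 of 0.172 CPM, Tp73 of 0.371 CPM and Myb of 1.54 CPM.

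Other sources of axonemal genes were looked at in the same way. Of 12 genes of sperm and testis, 5 had no count in any rat (Prm1, Prm2, Tnp1, Acrv1 and Pgk2), and the most abundant was Spata18 at 2.38 CPM. Choroid plexus has motile cilia too, and its defining genes were near 0, with no count of Otx2 in any rat and a mean of 0.0291 CPM for Ttr. The most abundant of the 11 choroid plexus genes was Slc4a5 at 12.7 CPM. In a bulk library, fewer ependymal cells and less RNA per cell cannot be told apart.

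One library stood apart before any group was compared. Intact male 6 had the lowest CPM of the 22 rats in 24 of the 49 members that passed the filter, against 6.88% of all genes that passed. The next highest count of lowest values was 7 of 49, in intact male 2. The summed level of all members was 516 CPM in intact male 6, the lowest of the 22, and 660 CPM in intact male 3, the highest. Its total of 15347219 counts lay above the median, and it is a long-fragment library.

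Cfap65, a protein of the sperm tail and of motile cilia, shows the size of the gap. Its level was 0.722 CPM in intact male 6 and 3.19, 6.44, 6.58 and 8.48 CPM in intact males 1, 2, 3 and 5. Cfap43 and Cfap44, a pair of proteins that tether inner dynein to the doublet, stood at 2.49 and 2.1 CPM in that rat, and no other intact male was below 7.11 and 5.93 CPM. Dnah2, an inner-arm heavy chain, was at 1.58 CPM in intact male 6, and the other intact males ran from 4.25 to 7.05 CPM.

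Other cell types moved in the same library. Intact male 6 had the lowest summed level of the 7 genes of cerebrospinal fluid-contacting neurons, cells that sit at the canal, at 11.5 CPM against a median of 24.1 CPM over the 22 rats. Their most abundant gene, Pkd1l2, was at 2.1 CPM there and at 5.84 CPM or more in every other rat. It also had the lowest sum of the 10 dorsal midline genes (12.3 CPM) and of the 16 genes of meninges and fibroblasts (87.8 CPM), and the highest sum of the 11 motor neuron genes (1073 CPM against a median of 713). That last sum was 686 and 820 CPM in the other long-fragment intact males, 1 and 3, and 583 and 606 CPM in the short-fragment intact males, 2 and 5. In intact female 3, also a long-fragment library, it was 945 CPM. The sum of the 15 genes listed as non-axonemal ependymal genes was 402 CPM in intact male 6, inside the range of the other intact males. Single genes of that list were lowest there: Tmem212 at 0.263 CPM, the axonemal Ccdc153 at 0.788 CPM and Vim at 29.5 CPM. The part of these cell types, or of the tissue taken, in the low cilia values of intact male 6 was not tested.

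**Figure D1:**
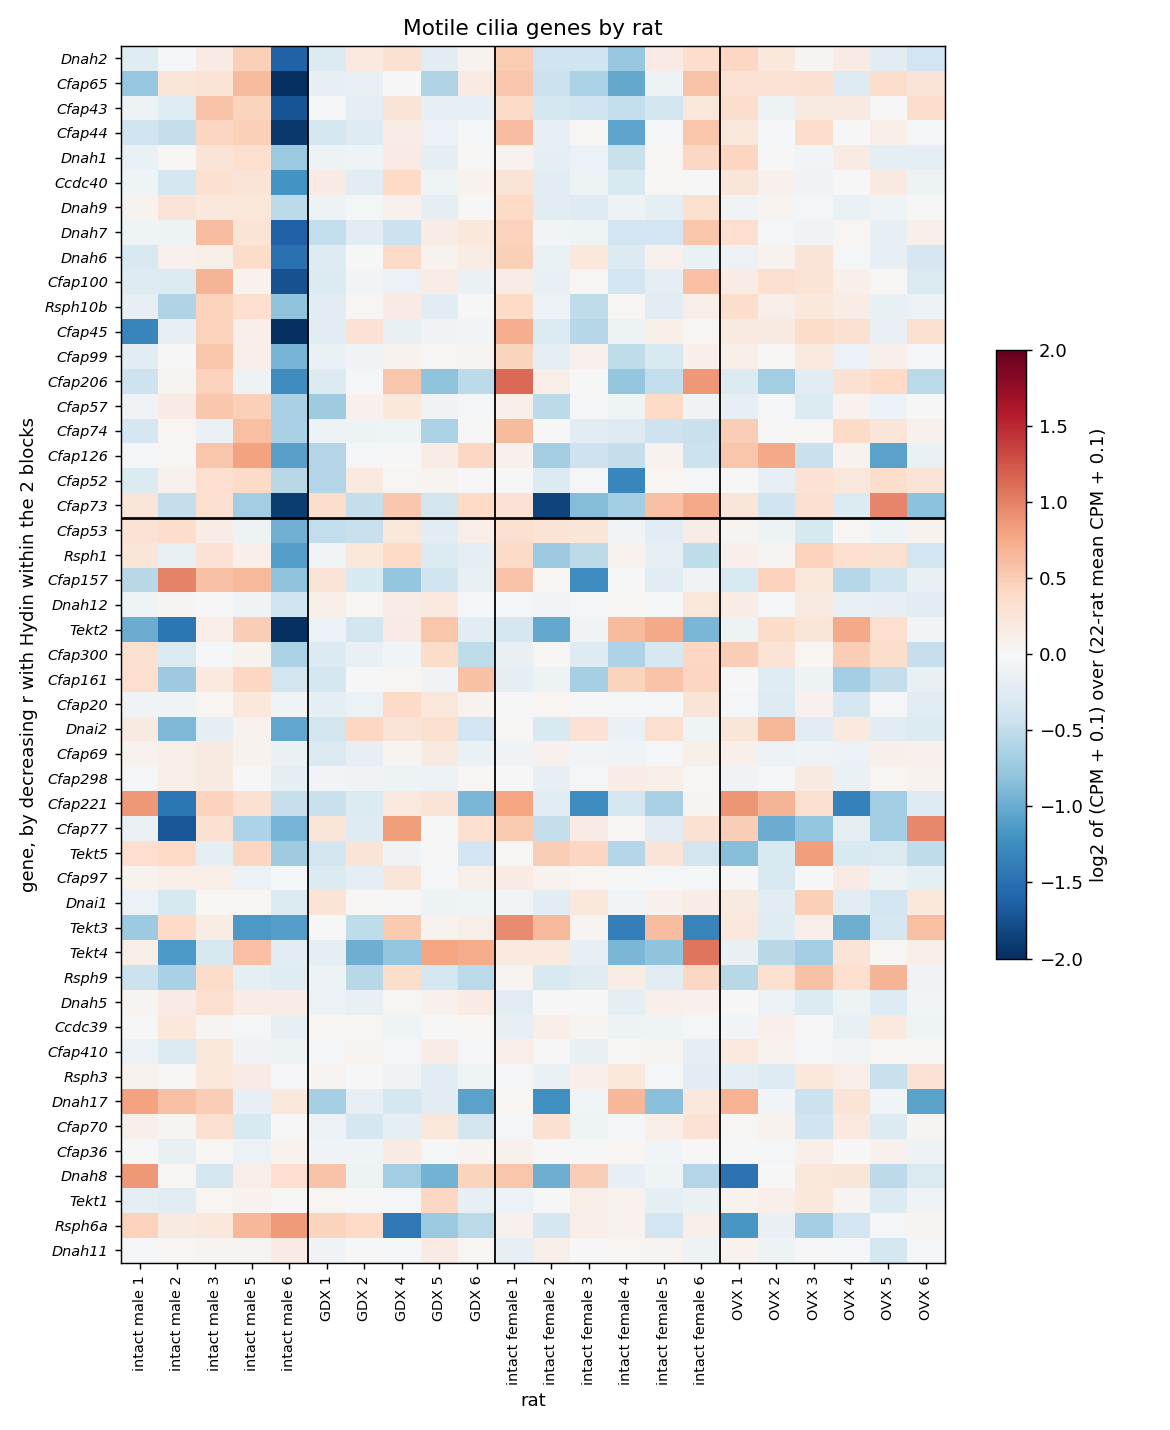
Each cell is the log2 ratio of a member's CPM in 1 rat to its mean over the 22 rats, for the 49 members that passed the filter, with rats on the horizontal axis in their groups and the 19 members that tracked Hydin above the line. The column of intact male 6 is low down most of the upper block.

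The dynein heavy chains, the motors of the arms, are given first. Dnah12, an inner-arm chain, had a mean of 62.0 ± 6.98 CPM (SD, here and below) over the 5 intact males and 70.6 ± 4.19 over the 5 GDX males. Over the 6 intact females the mean was 67.1 ± 5.09 CPM, and over the 6 OVX females 64.7 ± 7.89 CPM. All 4 groups overlapped, and the lowest value, 50.3 CPM, was that of intact male 6. Dnah11, an outer-arm chain, had group means between 40.3 and 43.9 CPM. Its value in intact male 6, 47.1 CPM, was above those of the other intact males, so the low values of that rat did not extend to every member.

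Dnah9, an outer-arm chain of the distal cilium, was at 27.9, 31.8, 30.8, 31.1 and 18.4 CPM in intact males 1, 2, 3, 5 and 6. In GDX males it was at 24.9, 25.8, 28.2, 23.2 and 26.7 CPM in rats 1, 2, 4, 5 and 6. The 4 other intact males were near or above the GDX rats and intact male 6 was below all of them. Dnah5, an outer-arm chain whose loss causes primary ciliary dyskinesia, had means of 25.9 ± 1.73 CPM in males with testes and 23.2 ± 2.1 CPM in those without. The female means were 22.7 ± 2.12 CPM in the intact and 21.1 ± 1.64 CPM in the OVX rats.

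The intermediate chains, which join the outer arm's motors to its base, are Dnai1 and Dnai2. Dnai1 had group means from 3.76 to 4.23 CPM, and Dnai2 had a mean of 1.05 CPM over the 22 rats. Of the ruler, Ccdc39 had a mean of 16.3 ± 1.54 CPM in the intact males and 16.1 ± 0.554 in the GDX males. In females its mean was 15.8 ± 1.21 CPM with ovaries and 16.1 ± 1.46 after OVX, and all 4 means lay inside the spread of each group. Ccdc40, its partner, had means of 5.25 ± 1.92, 6.06 ± 1.02, 5.55 ± 0.822 and 5.97 ± 0.576 CPM in the same order, and its lowest value, 2.43 CPM, was that of intact male 6.

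Of the radial spoke genes, Rsph3 had group means from 7.03 to 7.78 CPM and Rsph10b from 5.09 to 5.77 CPM. Rsph4a, a spoke head gene of motile cilia in other tissues, had 17 counts in all 22 libraries together, and Rsph14 had a mean of 0.387 CPM; neither passed the filter. The tektins are filaments inside the doublet wall; Tekt1 had a mean of 9.27 CPM and the other 4 had means of 1.38 CPM or less.

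Among the Cfap genes, which are grouped by name and not by place, Cfap36 had a mean of 163 CPM, and its range over the 22 rats was 147 to 183 CPM. Cfap298, a factor in dynein arm assembly, had a mean of 36.1 CPM and Cfap410 of 34.2 CPM. Cfap20, a protein of the doublet's inner junction, had a mean of 18.8 CPM. Cfap58 had no count in any rat. Summed over all members, the level was 590 ± 52.6 CPM in the intact and 596 ± 29.3 in the GDX males, and 598 ± 28.8 CPM in the intact and 595 ± 24.4 in the OVX females, and these means lay closer together than the rats of any group.

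How the members vary together among rats of the same group was measured against Hydin, a protein of the central pair that is outside the set and was chosen after its values had been seen. Hydin was at 26.4, 26.7, 31.2, 33.7 and 15.8 CPM in intact males 1, 2, 3, 5 and 6, and at 22.2, 24.2, 27.1, 20.2 and 26.5 CPM in GDX males 1, 2, 4, 5 and 6. In intact females it ran from 20.3 to 28.4 CPM and in OVX females from 25.6 to 28.8 CPM. On the log2 scale used for the correlations, intact male 6 and GDX male 5 were the 2 rats farthest from the median. On the CPM scale they were intact males 6 and 5.

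Of 49 relations computed, 19 had a positive correlation with a permutation p under 0.05 after Benjamini-Hochberg adjustment over the 49, and no member had a negative one. By a permutation p under 0.05 with no adjustment and r above 0 there were 20 of 49 members (40.8%), and 475 of the 15561 genes that passed the filter, Hydin left out (3.05%). Adjusted over all those genes, 0 members and 0% of genes were under 0.05, with 100000 permutations to set the smallest p. Dnah2 had the highest, with Pearson's r = 0.932 (permutation p = 1e-05, the smallest they can give, adjusted 0.000245) and Spearman's rho = 0.892 (permutation p = 1e-05, adjusted 0.000245). Its r was 0.870 without the 2 farthest rats and 0.921 when values were centred within group and fragment class. Cfap65 had r = 0.923 (permutation p = 5e-05, adjusted 0.000817) and rho = 0.832 (permutation p = 0.00011, adjusted 0.0018), with r = 0.792 without the 2 rats and 0.921 within class. These values pool the 4 groups after centring; no correlation was computed inside a single group.

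The other high relations were of the same kind. Cfap44 had r = 0.899 (permutation p = 1e-04, adjusted 0.00122) and rho = 0.796 (permutation p = 0.00016, adjusted 0.00196), with r = 0.861 without the 2 rats and 0.898 within class. Dnah1, an inner-arm heavy chain, had r = 0.891 (permutation p = 1e-05, adjusted 0.000245) and rho = 0.886 (permutation p = 1e-05, adjusted 0.000245), with r = 0.827 without the 2 rats and 0.891 within class. Ccdc40 had r = 0.862 (permutation p = 0.00067, adjusted 0.00469) and rho = 0.676 (permutation p = 0.00286, adjusted 0.0145), with r = 0.652 without the 2 rats and 0.866 within class.

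Its partner in the ruler was not among the 19. Ccdc39 had r = 0.129 (permutation p = 0.637, adjusted 0.709) and rho = -0.013 (permutation p = 0.959, adjusted 0.96), with r = -0.342 without the 2 rats and 0.0018 within class. The difference between the correlations of Ccdc39 and Ccdc40 was not tested. Also outside the 19 were Dnah11 (r = -0.298, permutation p = 0.0903, adjusted 0.17), Dnah5 (r = 0.167, permutation p = 0.441, adjusted 0.529), Tekt1 (r = -0.269, permutation p = 0.236, adjusted 0.35) and Cfap36 (r = -0.0913, permutation p = 0.775, adjusted 0.801). The heavy chains were thus on both sides: Dnah1, Dnah2, Dnah6, Dnah7 and Dnah9 among the 19, and Dnah5, Dnah8, Dnah11, Dnah12 and Dnah17 among the other 30.

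The adjusted count depends on a few rats. Without intact male 6 and GDX male 5, 8 members had an adjusted permutation p under 0.05, of which 7 were among the 19 (Dnah1, Dnah2, Dnah7, Cfap43, Cfap44, Cfap65 and Rsph10b) and the other was Cfap20. Without adjustment it was 17 of 49 members, against 2.97% of all genes. Leaving out intact males 6 and 5, the farthest on the CPM scale, gave 7 members with an adjusted permutation p under 0.05, and 13 without adjustment, against 3.1% of all genes. Without intact male 6 alone there were 8, all among the 19, namely Dnah1, Dnah2, Cfap43, Cfap44, Cfap65, Cfap206, Rsph10b and Ccdc40. Unadjusted there were 14, against 2.55% of all genes. The median r of the 19 was 0.794 over 22 rats and 0.632 without the 2 rats. Within group and fragment class 15 members had an adjusted permutation p under 0.05, with 20 unadjusted, against 3.37% of all genes. Of the 19, r was above 0.5 in 15 without the 2 rats farthest on the log2 scale, in 14 without intact male 6 and in 19 within group and fragment class. Over 22 rats, 17 of the 19 also had an adjusted permutation p under 0.05 by Spearman's rho.

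**Figure D2:**
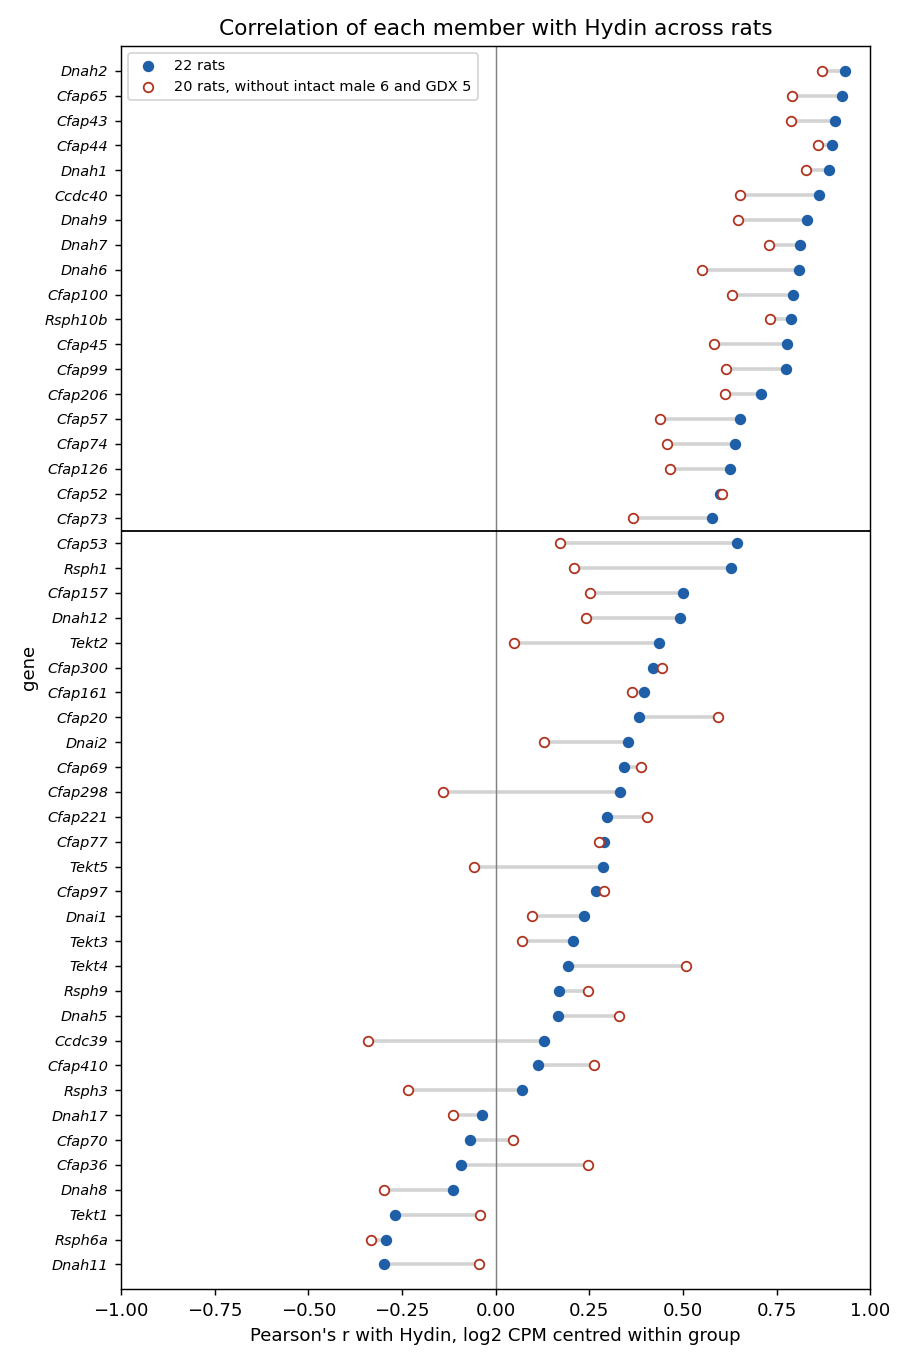
Pearson's r of each of 49 members with Hydin on log2 CPM centred within group, over 22 rats (filled) and without intact male 6 and GDX male 5 (open), with the 19 that tracked Hydin above the line. The highest is Dnah2, at 0.932 and 0.870, and most open points lie to the left of the filled ones.

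The 19 were chosen for moving with Hydin in these rats, so their level by rat is a description. Expressed as a ratio to the mean of the 22 rats, the geometric mean of the 19 was 0.424 in intact male 6, and 0.875, 0.980, 1.35 and 1.28 in intact males 1, 2, 3 and 5. It ran from 0.892 to 1.14 among GDX males. Among intact females it went from 0.745 through a median of 0.949 to 1.38, and among OVX females from 0.988 through 1.08 to 1.2. The intact females were thus spread widely without any rat as low as intact male 6, and the OVX females lay close together; the difference in spread was not tested.

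Of the 10 genes outside the set with the most similar pattern, among genes with a mean of at least 1 CPM, 4 are on the lists of axonemal and dynein arm genes used here (Spag17, Hydin, Wdr63 and Vwa3a), 1 is on that of cerebrospinal fluid-contacting neurons (Pkd1l2) and 5 are on none. Over the 22 rats, the highest r with the mean of the 49 members belonged to Adgb (0.932), Spag17 (0.914), Hydin (0.914), Wdr63 (0.906) and Vwa3a (0.903), followed by Fhad1, Ccdc180, Pkd1l2, Adamts16 and Nek5. Without intact male 6 the same genes had r = 0.810, 0.797, 0.781, 0.759 and 0.819 for the 5 given first. Spag17, a central pair protein, and Wdr63, an inner-arm protein, belong to the axoneme. Pkd1l2 marks cerebrospinal fluid-contacting neurons, which are not ependymal cells, and its r was 0.873 over 22 rats and 0.656 without intact male 6. These r values chose the genes and are a description.

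**Figure D3:**
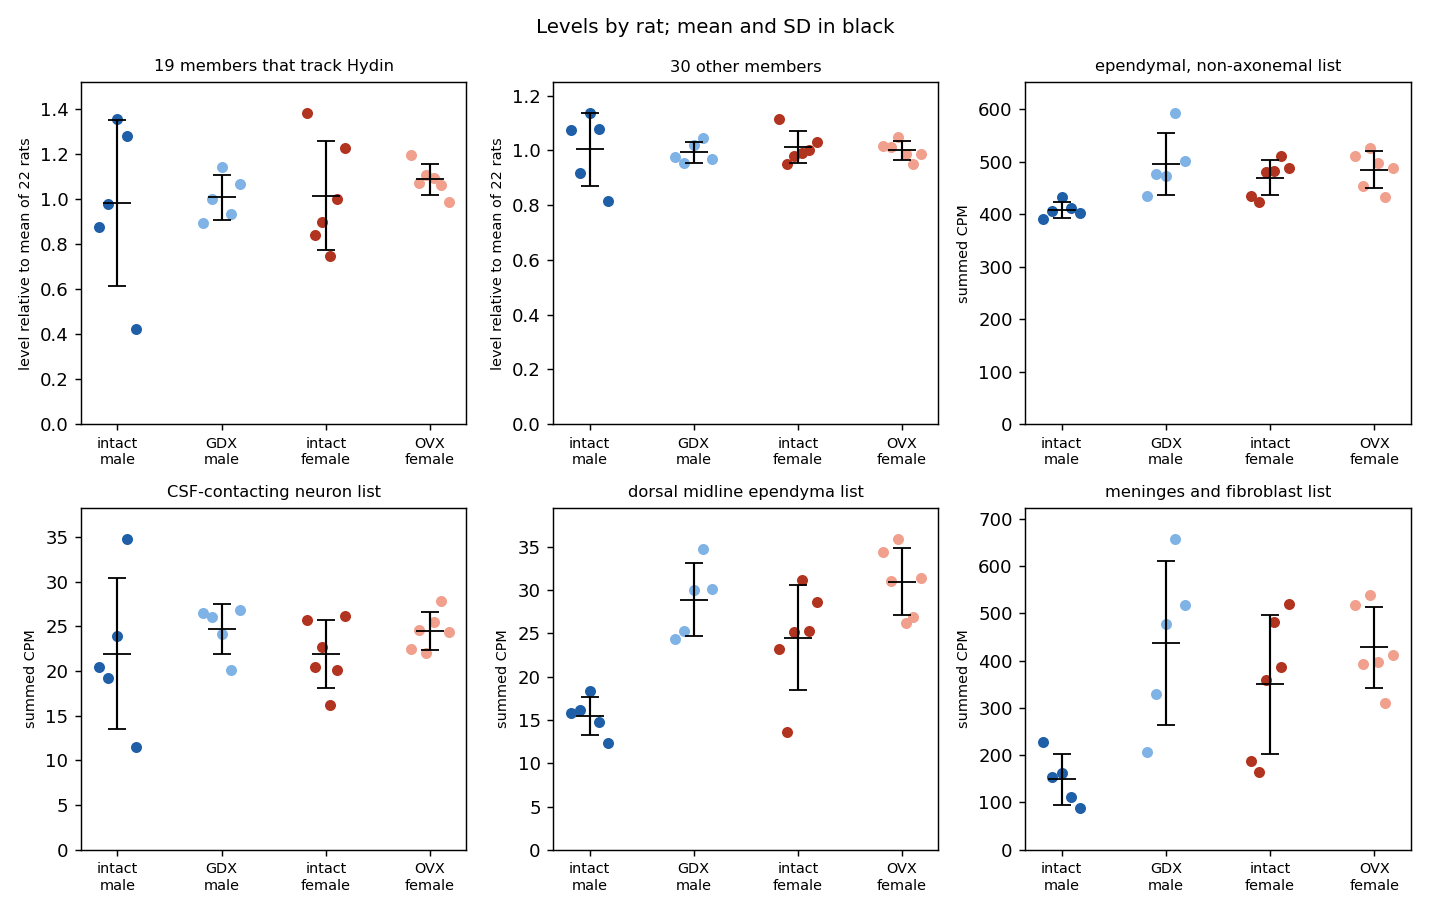
Levels by rat in the 4 groups, with the mean and SD in black: the 19 members that tracked Hydin and the other 30 as ratios to the mean of 22 rats, and 4 lists of other genes as summed CPM. The lowest point of the 19 is intact male 6 at 0.424, and the meninges and fibroblast sums are 149 CPM in intact males and 437 CPM in GDX males on average.

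Promoters were read because part of the set moved together between rats. RefSeq promoters of 300 bases, 250 before and 50 after the start, on build GRCr8, were found for 44 of the 52 members; none was in the table for Cfap52, Cfap53, Cfap73, Cfap157, Cfap410, Rsph1, Rsph4a and Tekt5. The motif of RFX factors was searched as GTTNCC facing GGNAAC with 0 to 3 bases between, and its half-site as either part alone, which every full match also holds. The forkhead core was searched as GTAAACA, all on both strands. One full RFX match was found among the 44, in Cfap298 (2.27%), and 234 of 27457 genes with a promoter had one (0.852%).

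The stretches below are 100 bases each, 5′ to 3′ on the gene's strand, with RFX letters in capitals. Cfap298 is shown for the full match, at chr11:43677533-43677632 on the minus strand. Dnah2 (chr10:54766177-54766276), Cfap65 (chr9:83935780-83935879) and Cfap44 (chr11:69790023-69790122), also on the minus strand, are shown as members that tracked Hydin closely and hold a half-site.
Cfap298: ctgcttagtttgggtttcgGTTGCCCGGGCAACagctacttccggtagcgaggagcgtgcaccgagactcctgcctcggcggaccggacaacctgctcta
Dnah2: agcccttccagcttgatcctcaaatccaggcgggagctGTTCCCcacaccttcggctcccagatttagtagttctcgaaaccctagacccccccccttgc
Cfap65: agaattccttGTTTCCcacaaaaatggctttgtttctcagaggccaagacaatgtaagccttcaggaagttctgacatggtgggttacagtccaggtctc
Cfap44: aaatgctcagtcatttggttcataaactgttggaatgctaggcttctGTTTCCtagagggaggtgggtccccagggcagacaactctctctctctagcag

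Half-sites are common letters. They were in 29 of the 44 member promoters (65.9%) and in 45.7% of all promoters. Among members that tracked Hydin 9 of 17 had one (52.9%), and among the other members that passed the filter 19 of 25 (76%). The forkhead core was in 2 of 44 (4.55%), Cfap20 and Tekt3, and in 3.77% of all promoters, and in none of the 17.

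In males, gonadectomy went with a lower level of 1 member and no higher one. Dnah17, an outer-arm heavy chain known from the sperm tail, was at 3.12, 2.67, 2.49, 1.55 and 2.04 CPM in intact males 1, 2, 3, 5 and 6. In GDX males 1, 2, 4, 5 and 6 it was at 1.06, 1.56, 1.35, 1.49 and 0.783 CPM. The GDX rats were lower, and the groups overlapped only through intact male 5 and GDX male 2. The gene fell by 0.91 ± 0.25 on the log2 scale (SE; edgeR quasi-likelihood, 5 against 5 rats, Benjamini-Hochberg adjusted p = 0.0353).

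This was 1 of 46 members tested, while 13.4% of the 14931 genes tested passed in this comparison in either direction and 6.58% were lower in GDX males, so the members' share was below the background. At an unadjusted p under 0.05 there were 5 of 46, or 10.9%, against 23.8% of all genes. DESeq2 called 2 members, Dnah17 and Dnah12, and 14.1% of all genes it tested. The median log2 fold change of the members was -0.01, that of all genes was 0.00, and 22 members had a positive and 24 a negative value. Leaving out 1 rat moved the members' median between -0.14 (without intact male 6) and 0.09 (without intact male 3). No member separated the GDX males from the intact males without overlap, and 7.47% of all genes did.

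The call of Dnah17 did not hold under every setting. The log2 fold change of Dnah17, GDX vs intact males, was -0.74 with fragment class as a term (edgeR adjusted p = 0.260) and -0.74 among short-fragment libraries only, which leaves 2 intact males (edgeR adjusted p = 0.309). With RNA integrity as a term it was -0.81 (edgeR adjusted p = 0.122). The call was also lost with rat number as a block, although rat numbers do not pair rats. Dnah17 stayed called without any single rat. In females its level was 0.692, 1.74 and 2.85 CPM in intact rats (lowest, median, highest) and 0.781, 1.68 and 2.89 CPM in OVX rats, a log2 fold change of 0.09 ± 0.32. Tested directly, the male change minus the female change was -0.998 ± 0.45 (edgeR adjusted p = 0.378) and did not pass.

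The other members named in males did not pass in edgeR. Dnah12 had 0.19 ± 0.07 (edgeR adjusted p = 0.126), and Cfap77 had 0.84 ± 0.39 (edgeR adjusted p = 0.207). Rsph6a, a spoke head gene of sperm, had -0.76 ± 0.35 (edgeR adjusted p = 0.205), and Dnah5 had -0.16 ± 0.07 (edgeR adjusted p = 0.182). Ccdc39 and Ccdc40 had -0.01 ± 0.07 and 0.21 ± 0.23 (edgeR adjusted p = 0.939 and 0.633). Leaving out 1 intact male made the number of members called 2 in 3 cases: Dnah12 joined Dnah17 without intact male 2, Cfap77 without intact male 3 and Dnah9 without intact male 6.

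**Figure D4:**
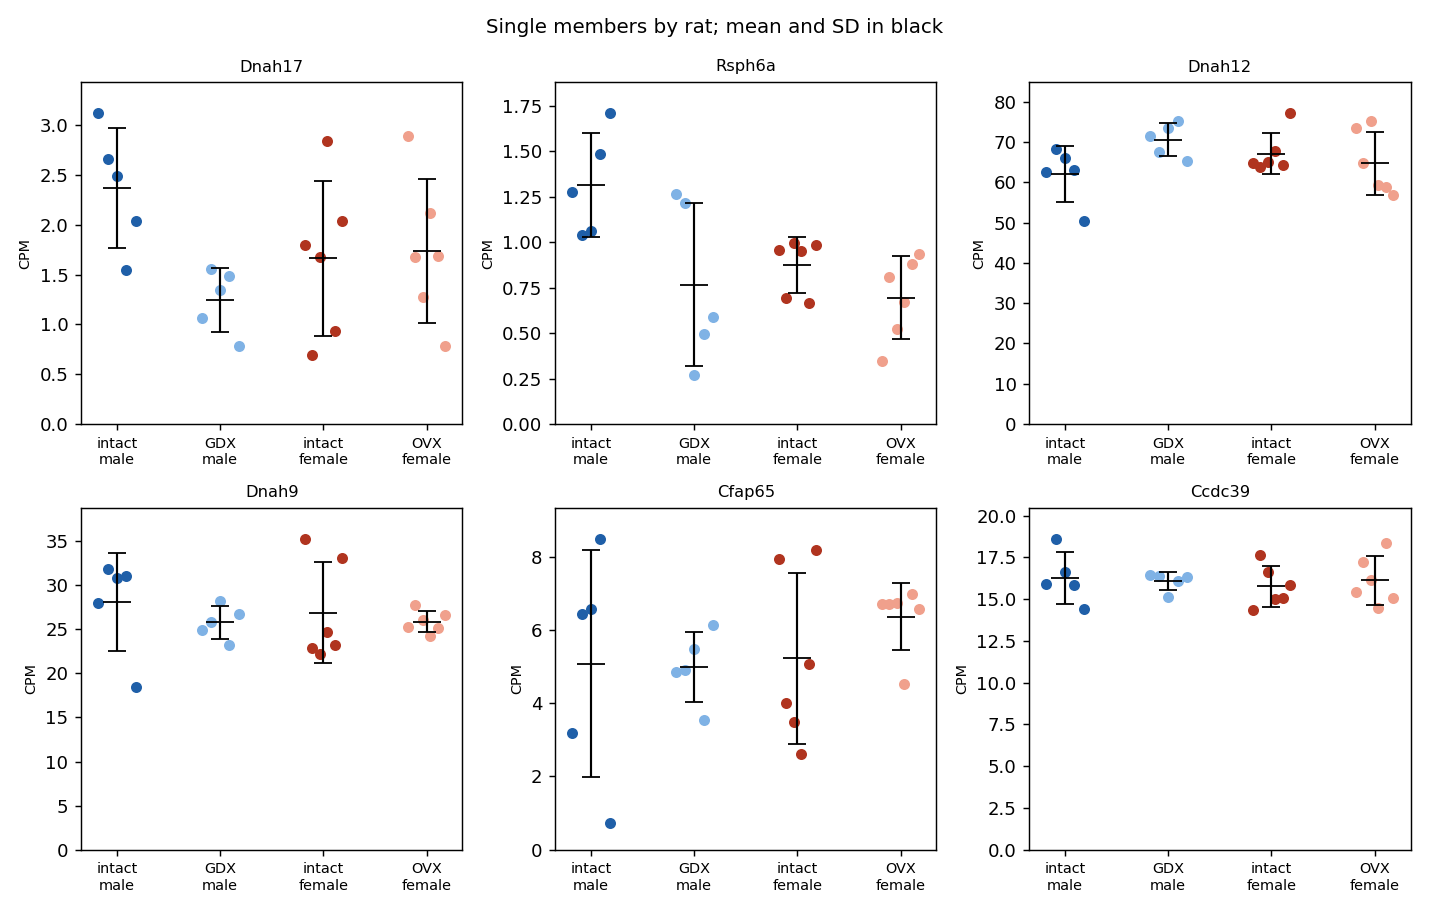
CPM of 6 members by rat in the 4 groups, with the mean and SD in black. Dnah17 is 2.37 CPM in intact males and 1.25 CPM in GDX males on average, and the low point of Dnah9 and Cfap65 among intact males is intact male 6.

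Markers of other cells differed between the same males, a comparison in which 13.4% of all genes tested were called in either direction. All 15 tested genes of meninges and fibroblasts rose in GDX males (median log2 fold change 1.60), among them the collagen gene Col1a1, the most abundant, by 1.81 ± 0.35 (edgeR adjusted p = 0.00848). Their sum was 149 ± 54.1 CPM in intact males and 437 ± 174 CPM in GDX males, lowest in intact male 6 and highest in GDX male 5 (657 CPM). Of 8 dorsal midline genes, 3 rose and none fell: the transcription factor genes Zic1 by 1.31 ± 0.20 (edgeR adjusted p = 0.00472), Zic2 by 1.19 ± 0.20 (edgeR adjusted p = 0.00607) and Zic4 by 1.74 ± 0.33 (edgeR adjusted p = 0.00778). Their part in the value of Dnah17 was not tested.

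Of 14 non-axonemal ependymal genes tested, 3 rose in GDX males (Vim by 1.15 ± 0.25, edgeR adjusted p = 0.0139, Tm4sf1 and Pltp) and 1 fell (Pcp4l1). Vim is made by fibroblasts as well. The list's sum was 408 ± 15.4 CPM in intact males and 495 ± 59.0 CPM in GDX males. Of 5 ventral midline genes, Shh fell by 0.39 ± 0.13 (edgeR adjusted p = 0.0913), and the sums were 167 ± 5.71 CPM and 159 ± 10.9 CPM, with Spon1 the most abundant. None of 6 genes of cerebrospinal fluid-contacting neurons passed in edgeR, none of them had an unadjusted p under 0.05, and DESeq2 calls were not counted for this or any other marker list.

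Genes that work with the members gave few calls in males. Of 18 genes of dynein arm assembly and docking, none rose and 2 fell: Spag1 by 0.29 ± 0.07 (edgeR adjusted p = 0.0206) and Zmynd10 by 0.41 ± 0.13 (edgeR adjusted p = 0.0586), both cytoplasmic assembly factors. Of 29 genes of intraflagellar transport, which primary cilia share, 1 fell, the kinesin gene Kif17 by 0.30 ± 0.08 (edgeR adjusted p = 0.0311), and none rose. Of 8 ciliogenesis regulators tested, none was called by edgeR and none had an unadjusted p under 0.05.

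The remaining lists are of other parts of the tissue, and their counts stand beside the same 13.4% of all genes tested. Of 10 motor neuron genes tested, 1 fell (Slc18a3), and of 8 dorsal horn genes 1 fell (Calb2). In long-fragment against short-fragment libraries of intact rats, Slc18a3 had 0.38 ± 0.10 and Calb2 had 0.10 ± 0.04. The part of fragment class in their fall was not tested. Of 10 astrocyte genes, 3 rose and 1 fell, and of 8 oligodendrocyte genes 1 rose. Of 4 choroid plexus genes tested 1 rose (Kcnj13), and the single testis gene tested, Spata18, was not called.

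In females, no member passed after ovariectomy. edgeR called 0 of 45 members tested, 1 had an unadjusted p under 0.05 (Cfap20) and DESeq2 called 0, against 1.17% of all genes. Over all 14910 genes tested 0.0335% passed, which is 5 genes, and 10.2% had an unadjusted p under 0.05. The median log2 fold change was 0.03, between -0.0026 without intact female 4 and 0.09 without intact female 1, and the smallest adjusted p was 0.485. No member separated the OVX from the intact females without overlap, against 0.543% of all genes.

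None of the members named in females passed the test. Cfap20 had -0.16 ± 0.08 (edgeR adjusted p = 0.485) and Cfap43 had 0.30 ± 0.15 (edgeR adjusted p = 0.524). Cfap52 had 0.37 ± 0.20 (edgeR adjusted p = 0.562), Cfap300 0.38 ± 0.21 (edgeR adjusted p = 0.566), Cfap161 -0.42 ± 0.26 (edgeR adjusted p = 0.620) and Cfap53 -0.19 ± 0.14 (edgeR adjusted p = 0.697). Ccdc39 and Ccdc40 had 0.04 ± 0.07 and 0.11 ± 0.12 (edgeR adjusted p = 0.927 and 0.820). None of the genes of the 15 other lists was called by edgeR in this comparison, and 27 of them had an unadjusted p under 0.05. All 10 motor neuron genes tested had a negative value, with a median of -0.345. Among them Slc18a3 had -0.54 ± 0.11 (edgeR adjusted p = 0.149). In long-fragment against short-fragment libraries of intact rats, all 10 motor neuron genes tested had a positive value, with a median of 0.393. Every OVX library is of the short-fragment class, and the part of fragment class in these motor neuron values was not tested. All 8 dorsal midline genes tested had a positive value, with a median of 0.443. The central pair gene list held the smallest unadjusted p, that of its most abundant gene Tppp3, at -0.18 ± 0.03 (edgeR adjusted p = 0.115).

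**Figure D5:**
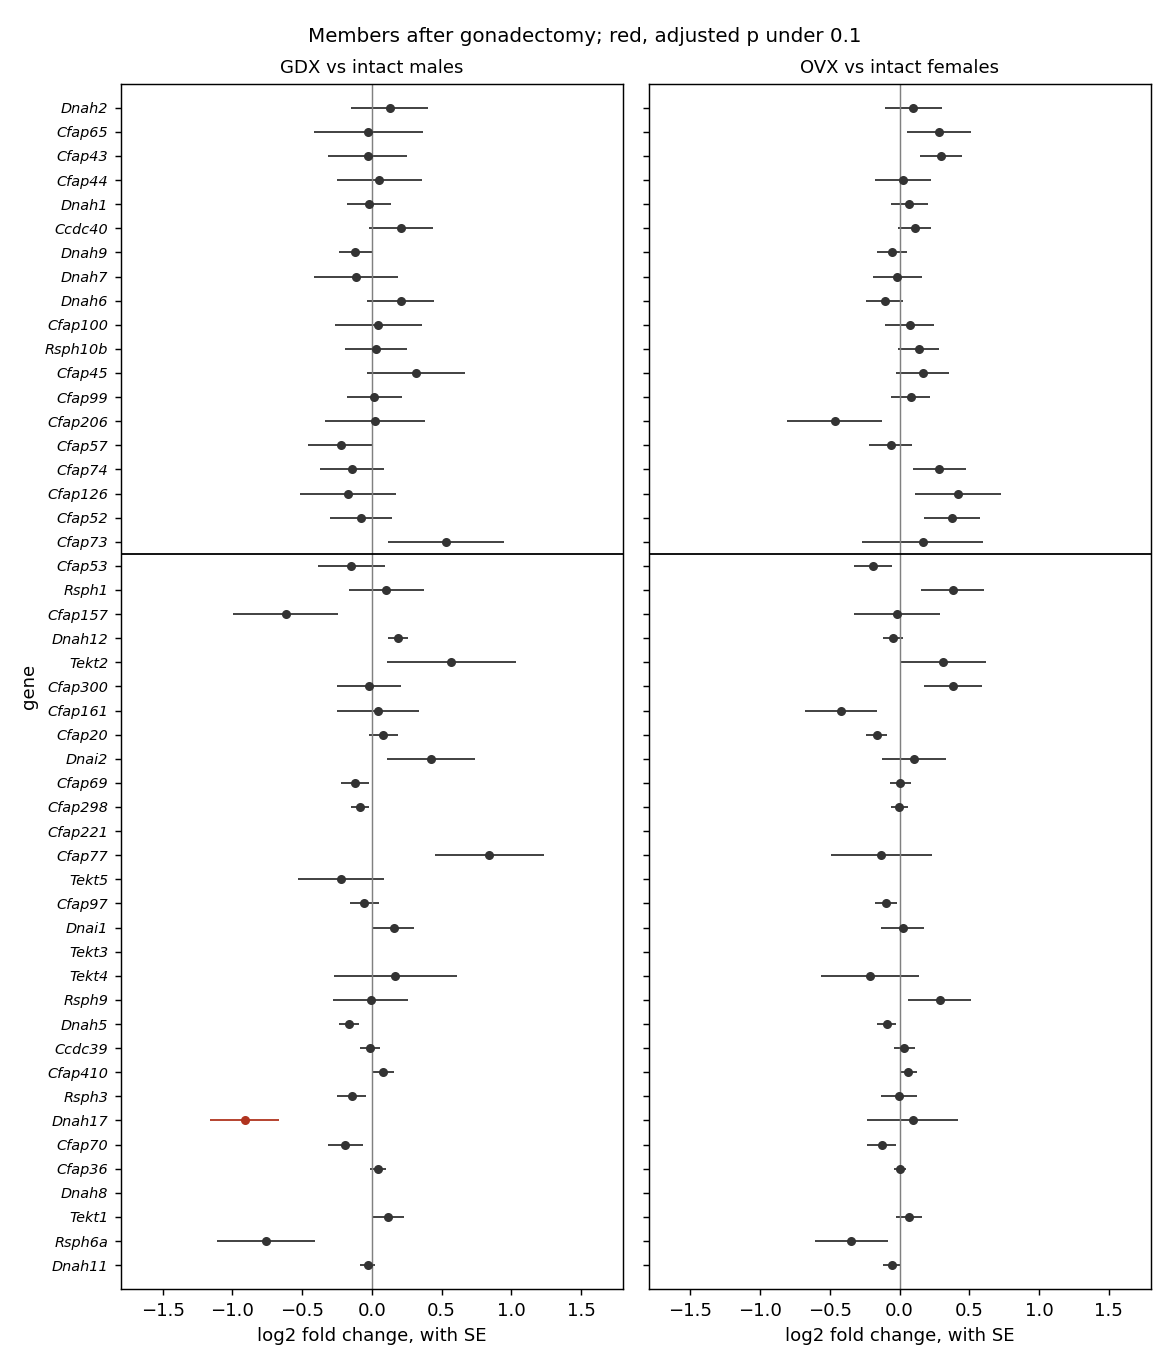
Log2 fold changes of members with their SE, GDX against intact males on the left and OVX against intact females on the right, for members tested, with Hydin-tracking members above the line. Only Dnah17 in males, at -0.91, has an edgeR adjusted p under 0.1 and is in red.

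Between intact males and intact females, 0 of 46 members tested were called by edgeR and 0 by DESeq2, with 2 at an unadjusted p under 0.05. Of 14937 genes 4.01% were called by edgeR and 15.5% were at that level, and DESeq2 called 5.5%. Dnah5 was 0.20 ± 0.07 higher in males on the log2 scale (edgeR adjusted p = 0.168). Rsph6a was at 1.28, 1.04, 1.06, 1.49 and 1.71 CPM in intact males 1, 2, 3, 5 and 6 and at 0.668, 0.953 and 0.997 CPM in intact females (lowest, median, highest). These groups did not overlap, as in 2.67% of all genes, and the log2 fold change was 0.59 ± 0.23 (edgeR adjusted p = 0.217). Dnah17 had 0.51 ± 0.30 (edgeR adjusted p = 0.457), and -0.14 among short-fragment libraries only. Lower in intact males were Cfap77 at -0.65 ± 0.37 (edgeR adjusted p = 0.425) and Dnah12 at -0.11 ± 0.07 (edgeR adjusted p = 0.504). Cfap206 was lower as well, at -0.51 ± 0.39 (edgeR adjusted p = 0.591). Of the members tested, 20 had a positive and 26 a negative value.

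Genes of the other lists were called in this comparison, in which edgeR called 4.01% of all genes tested. Of 15 genes of meninges and fibroblasts, 11 were lower in intact males and none was higher, with sums of 149 ± 54.1 CPM in intact males and 350 ± 147 CPM in intact females. Of 8 dorsal midline genes, 3 were lower in intact males (Zic1, Zic2 and Zic4), with sums of 15.5 ± 2.19 and 24.5 ± 6.05 CPM. Here too the called genes were all of the Zic family, and the cells that gave them were not tested. In the axonemal lists, the central pair list had 1 lower gene in males (Catip) and intraflagellar transport 1 higher (Ift52). Of 13 non-axonemal ependymal genes, 1 was higher in intact males, Sox2 by 0.29 ± 0.06 (edgeR adjusted p = 0.0172), and 1 was lower, Vim at -0.99 ± 0.21 (edgeR adjusted p = 0.0235). The choroid plexus gene Kcnj13 was lower at -1.65 ± 0.42 (edgeR adjusted p = 0.0537) and the dorsal horn gene Calb2 higher by 0.21 ± 0.04 (edgeR adjusted p = 0.0203).

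Among gonadectomised rats, which are all of the short-fragment class, edgeR called 0 of 45 members between GDX males and OVX females and DESeq2 called 0, with 2 at an unadjusted p under 0.05 (Cfap74 and Cfap65). Over all 15084 genes 0.232% were called and 9.37% had an unadjusted p under 0.05, and DESeq2 called 0.862%. Cfap74, a central pair protein, had means of 2.87 ± 0.467 CPM in GDX males and 3.78 ± 0.564 CPM in OVX females, a log2 fold change of -0.39 ± 0.16 (edgeR adjusted p = 0.453). Cfap65 had -0.34 ± 0.15 (edgeR adjusted p = 0.496). The groups overlapped for both genes. No gene of the 15 lists was called by edgeR between these groups, and 11 had an unadjusted p under 0.05.

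The test of whether the change after gonadectomy differs between the sexes called 0 of 49 members by edgeR and 0 by DESeq2, with 2 at an unadjusted p under 0.05 (Dnah17 and Dnah12), against 0.116% of 15562 genes called and 11.6% at that level, and 1.56% called by DESeq2. Dnah12 had 0.24 ± 0.11 (edgeR adjusted p = 0.397) and Cfap20 had 0.25 ± 0.13 (edgeR adjusted p = 0.470). So no difference between male and female responses was detected for any member.

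Fragment class was compared among intact rats, with sex as a term. Of 49 members edgeR called 0 and DESeq2 0, with 3 at an unadjusted p under 0.05 (Cfap74, Cfap157 and Cfap70), against 0.00649% of 15401 genes called, which is 1 gene, and 7.69% at that level. DESeq2 called 0.371% of all genes. Cfap74 had -0.63 ± 0.20 in long-fragment against short-fragment libraries (edgeR adjusted p = 0.477). The median of the members was -0.07 and that of all genes 0.00, with 33 of 49 members negative. The members' median was 0.0011 without intact male 6 and -0.18 without intact female 4. Outside the set, all 10 motor neuron genes tested had a positive value, with a median of 0.393, and edgeR called 0 of them.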

How the data were processed

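The authors deposited raw read counts per gene, 1 column for each of 22 rats, made with Subread featureCounts on the Rnor_6.0 assembly. The study's methods name Hisat2 and a SMARTer Pico kit, and the labels name TopHat2 2.0.13 and TruSeq; the difference could not be settled from the counts. Members and lists were chosen with earlier results of these data known, and Hydin and the alternatives around it were added after the data were seen.

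Each comparison used only its own groups in edgeR 4.0.16 (R 4.3.3): filterByExpr, TMM scaling, a quasi-likelihood test and Benjamini-Hochberg adjustment over all genes tested, with a call at an adjusted p under 0.1. DESeq2 1.42.0 was run beside it. Correlations used log2 CPM with a prior count of 2, centred within group, and 100000 two-sided permutations within groups. Code was tested on simulated data, and no pair of libraries was found to be a duplicate. Named genes are the up to 4 members of each family with the highest mean CPM, the 3 with the smallest p in each direction of a comparison, every member called, Ccdc39 and Ccdc40, and in other lists the most abundant gene and the 2 with the smallest p; members and marker genes named beyond this, such as those that tracked Hydin, were chosen after their values were seen. Alternatives were DESeq2, RLE scaling, other filters, unadjusted p, RNA integrity, fragment class, a joint fit, a replicate block and leaving out each rat. Promoters come from RefSeq on GRCr8, not the assembly of the counts, with the most upstream start for each gene.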

Additional observations from a re-analysis of the deposited data

Results flagged for a closer look

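In 200 searches of 1 group for 1 named member or list sum, 12 values lay far from the rest of their group, which is 6%; a search of this kind finds about 1 in 20 groups by chance. None of the 12 was from intact male 6, 3 rats gave more than 1 of them, and no explanation was tested.

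Ccdc39 was 15.12 CPM in GDX male 4 and 16.1 to 16.5 CPM in the other GDX males. Dnah12 was 77.08 CPM in intact female 6 and 63.7 to 67.6 CPM in the other intact females. Cfap20 was high in the same rat, at 22.41 CPM against 18.2 to 19.3 CPM. Dnai1 was 4.98 CPM in GDX male 1 and 3.83 to 4.16 CPM in the other GDX males. Tekt5 was 1.346 CPM in OVX female 3 and 0.347 to 0.561 CPM in the other OVX females. Cfap52 was 1.094 CPM in intact female 4 and 2.35 to 2.94 CPM in the others of that group.

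Cfap74 was found in 2 groups, at 2.058 CPM in GDX male 5 against 2.99 to 3.26 CPM, and at 5.067 CPM in intact female 1 against 2.35 to 3.25 CPM. Cfap65 was 4.518 CPM in OVX female 4 and 6.56 to 6.98 CPM in the other OVX females. The summed ventral midline genes were 139.7 CPM in GDX male 4 against 160 to 168 CPM, and 176.5 CPM in intact male 5 against 161 to 166 CPM. The summed oligodendrocyte genes were 22640 CPM in OVX female 4 and 24760 to 25900 CPM in the other OVX females.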

How the results depend on the processing

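Over the alternatives other than leaving out a rat, 326 of 359 fold changes of named members kept their direction and their side of the threshold, 27 passed where they had not, mostly with unadjusted p values, 4 no longer passed, all Dnah17 after gonadectomy in males, and 2 changed direction. The 2 were Ccdc39 in GDX males with rat number as a block (0.017) and Dnah17 in intact males against intact females among short-fragment libraries (-0.14). The number of members called in GDX males was 2 with DESeq2, 5 with unadjusted p values, and 0 with RNA integrity as a term, fragment class as a term, short-fragment libraries only or the block. With an unadjusted p under 0.1 the count was 4 in OVX females, 3 between intact males and females, 8 between GDX males and OVX females, 4 for the difference between the sexes and 5 for fragment class. At that level the shares of all genes were 16.9%, 22.9%, 16.2%, 19.2% and 13.8% in that order, and 32.1% in GDX males. Members that tracked Hydin numbered 8 without the 2 rats farthest from its median on the log2 scale and 7 without the 2 farthest on the CPM scale. Rat numbers do not pair rats: correlations between rats of the same number ran from -0.11 to 0.06. The cause of these shifts was not tested. Leaving out each rat in turn gave 1 to 2 members called in GDX males, 0 in each other comparison, and 8 to 20 tracking members, the 8 without intact male 6 and the 20 without GDX male 5. The log2 fold change of Ccdc39, GDX vs intact males, then ranged from -0.0566 to 0.0375 (above 0 without GDX male 4 or intact male 2), and that in OVX females from -0.0041 to 0.0675 (below 0 without OVX female 5). Depth limits the 13 members with a mean under 1 CPM, whose values rest on few reads in each library.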
